A study of Mus musculus with 6 samples.

Results

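A pair of binding sites of a tethered Nrf1-MafG heterodimer were described upstream of Hmox1, the gene for heme oxygenase 1, in mouse embryonic fibroblasts. The members were all summits lying between 77595000 and 77630000 on chromosome 8 of the mm9 mouse assembly, a window of 35 kb around the gene. A summit is the single base of highest enrichment within a peak called by chromatin immunoprecipitation and sequencing (ChIP-seq). Of 11322 summits in 4 lists, 8 lay in this window, 2 in each list. The gene was chosen by the positions, scores and within-list ranks of these same summits, which were already known to be high. Those values are therefore given as a description, with no test.

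All cells carried the genotype MafF-/-::MafG-/-::MafK-/-:T-N1G, in which the 3 small Maf genes are deleted and the tethered heterodimer T-N1G is expressed. The labels do not say how T-N1G was introduced or whether the cells were 1 clone. Cells received vehicle or 1.0 µM MG132, an inhibitor of the proteasome, for 4 h, and chromatin was precipitated with an antibody against MafG. There were 2 vehicle and 2 MG132 libraries, each with its own summit list, and 2 input libraries with no list analysed here. The lists held 24 and 828 summits in vehicle replicates 1 and 2, and 3894 and 6576 in MG132 replicates 1 and 2. Each summit carries a score, the authors' −log10 p or q value for that peak. The read depth behind the lists is unknown, and the labels do not say whether replicates came from separate cultures.

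Heme oxygenase 1 breaks heme down to biliverdin, iron and carbon monoxide, and is one of the most readily induced stress enzymes in fibroblasts and many other cells. Mouse Hmox1 is known for a proximal and a distal enhancer upstream of its promoter, both with repeated stress response elements. Cap'n'collar factors such as Nrf1 and Nrf2 bind such elements as dimers with small Maf proteins, and Bach1 represses the gene from the same elements. Nrf1 is degraded by the proteasome in unstressed cells and accumulates when the proteasome is inhibited. The lists hold positions of binding only, so whether the described sites act as enhancers was not tested. In the RefSeq gene order of GRCm38.p6, a different build used here for names alone, Hmox1 stands between the pseudogene Gm2059, next to Tom1, and Mcm5.

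Both sites were called in all 4 libraries and at nearly the same bases. The summit nearer to the gene, called proximal here, lay at 77613645 and 77613625 in vehicle replicates 1 and 2 and at 77613646 and 77613647 in MG132 replicates 1 and 2. Of these 4 positions, 3 fell within 2 bp of each other, and vehicle replicate 2 lay about 20 bp farther from the gene. The distal summit lay at 77607884 and 77607866 in vehicle and at 77607887 and 77607907 in MG132 replicates 1 and 2. Its positions were more spread, with vehicle replicate 2 farthest upstream and MG132 replicate 2 nearest to the gene.

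The positions of the proximal summit spanned 22 bp (SD 10.5 bp, n = 4 lists) and those of the distal summit 41 bp (SD 16.8 bp, n = 4). Among the 22 sites called in all 4 lists, the median span was 32.5 bp and the range 10 to 229 bp. The proximal site was therefore in the tighter part of that range, with 6 of the 22 sites spanning less, and the distal site in the middle, with 13 spanning less. Without vehicle replicate 2 the proximal span was 2 bp and the distal span 23 bp. Without MG132 replicate 2 the distal span was 21 bp. Relative to MG132 replicate 2, the summits of vehicle replicate 2 were displaced by -22 bp at the proximal and -41 bp at the distal site. Over the 802 sites matched between those lists the median displacement was 0 bp, with quartiles of -17 and 16 bp, so the list as a whole was not shifted.

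The distance between both summits varied by 21 bp over the lists. It was 5761 and 5759 bp in vehicle replicates 1 and 2 and 5759 and 5740 bp in MG132 replicates 1 and 2 (mean 5755 bp, SD 9.88, n = 4 lists). The vehicle and MG132 values touched at 5759 bp. With the gene start taken at about 77617500, which is approximate because no mm9 annotation was used, the proximal summit lay 3.85 to 3.88 kb upstream and the distal summit 9.59 to 9.63 kb upstream. No list had a summit at the gene start or between it and the downstream end of the window.

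**Figure D1:**
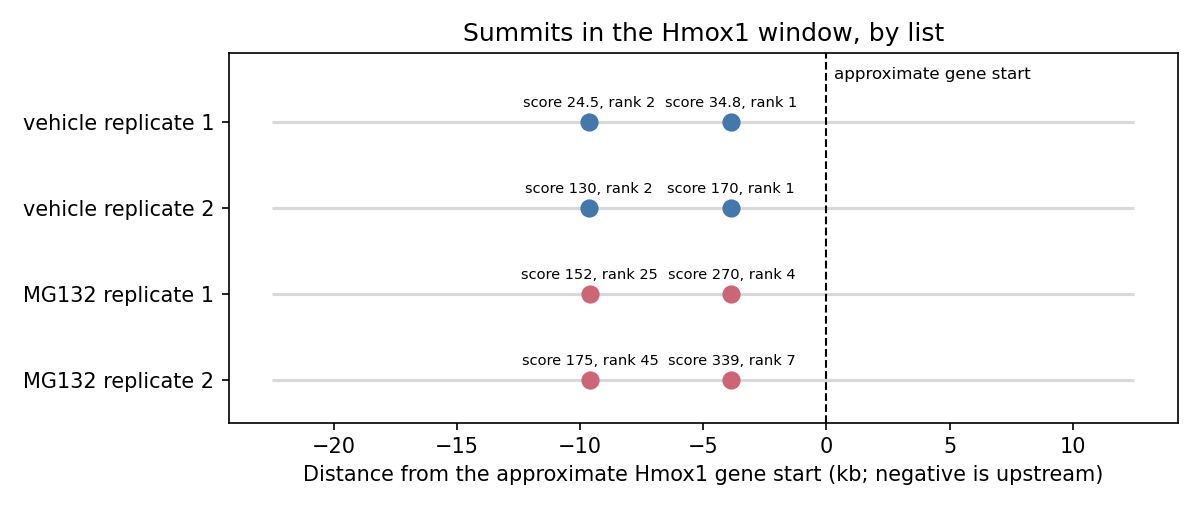
Position of every summit in the Hmox1 window, as distance from the approximate gene start in kb, in the 2 vehicle lists (blue) and the 2 MG132 lists (red), with score and rank within the list printed above each point. Each list has 1 summit near 3.85 kb and 1 near 9.6 kb upstream, and 0 downstream of the gene start.

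The pair stood alone in its part of the chromosome. In both MG132 lists the next summit on the downstream side was 1.02 Mb from the proximal site, and the next on the upstream side 2.09 Mb from the distal site. The downstream neighbour was weak, with scores of 8.74 and 7.0 in MG132 replicates 1 and 2. The upstream neighbour was stronger, at 45.8 and 77.4, and was also called in vehicle replicate 2 with a score of 26.0. When summits no more than 10 kb apart were joined into groups, 144 of the 6142 groups of MG132 replicate 2 (2.34%, the pair included) lay at least as far from the next group as the Hmox1 pair did. In MG132 replicate 1 it was 241 of 3768 (6.40%). The median distance between a group and its nearest other group was 100 kb and 172 kb in MG132 replicates 2 and 1. In vehicle replicate 2, a shorter list, 22.3% of groups were as isolated, and in vehicle replicate 1 the next summit was 28.6 Mb away and such gaps were ordinary.

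Within each list the proximal site had the higher score. In vehicle replicate 1 the proximal site scored 34.8 and the distal site 24.5, ranks 1 and 2 of 24. In vehicle replicate 2 they scored 170 and 130, ranks 1 and 2 of 828. Thus no site was stronger than this pair in either vehicle list, and the summits at rank 3 scored 20.2 and 123.

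In MG132 replicate 1 the proximal site scored 270 and the distal site 152, ranks 4 and 25 of 3894. In MG132 replicate 2 they scored 339 and 175, ranks 7 and 45 of 6576. Both sites were thus within the strongest 1% of each MG132 list, but no longer next to each other in rank. The distal rank of MG132 replicate 1 was tied with 1 other summit.

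The proximal site reached 95.7% and 84.1% of the highest score in MG132 replicates 1 and 2, and the distal site 53.7% and 43.3%. In vehicle, where the proximal site was itself the highest, the distal site reached 70.6% and 76.2% in replicates 1 and 2. On chromosome 8 the proximal site was the strongest in all 4 lists, out of 4 and 52 summits in vehicle and 228 and 372 in MG132. The distal site was at rank 2 on that chromosome in each list except MG132 replicate 2, where it was at rank 3. Set against the median score of its list, the distal site was 3.15 and 13.7 times as high in vehicle replicates 1 and 2 and 13.5 and 14.9 times in MG132. The proximal site was 4.47 and 18.0 times as high in vehicle and 24.0 and 28.9 times in MG132. The low value of vehicle replicate 1 came with a list of only 24 summits. Each list median was taken over different summits, so these multiples do not compare the conditions.

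**Figure D2:**
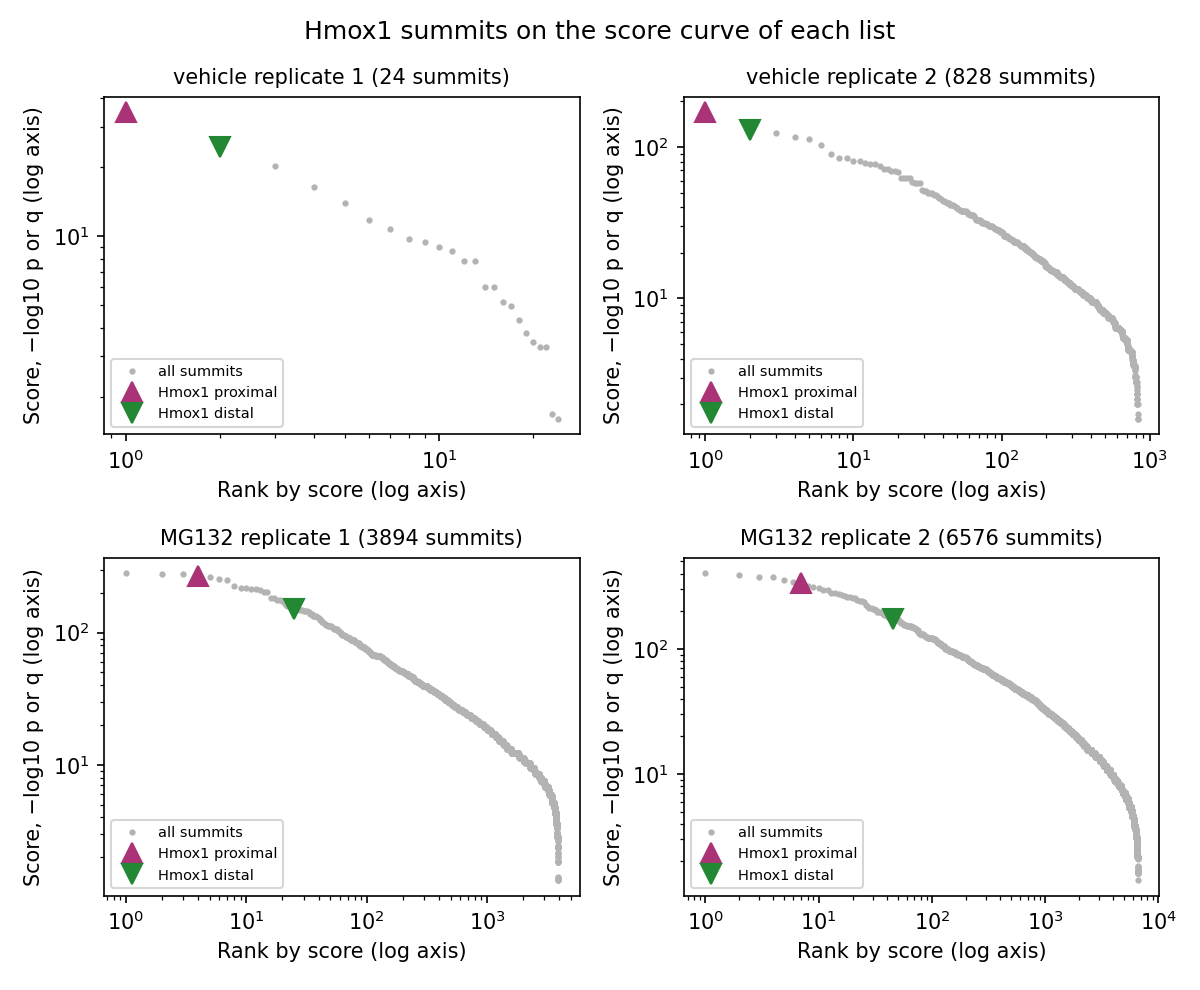
Score (−log10 p or q, log axis) against rank within the list (log axis) for every summit of the 2 vehicle and 2 MG132 lists, with the proximal (triangle up) and distal (triangle down) Hmox1 sites marked. The pair heads both vehicle curves, while in MG132 the proximal site stays in the first 7 and the distal site lies at ranks 25 and 45.

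Because the lists differ so much in length, the sites called in all 4 lists were ranked among themselves. Of 3379 sites shared by both MG132 lists, 22 (0.651%) were also called in both vehicle lists, and both Hmox1 sites were among them. Vehicle replicate 1 held only 24 summits, so no more than 24 sites could be shared, and 22 of its 24 were. Presence in vehicle was part of how the gene was chosen. Among these 22 sites the proximal site ranked 1 in both vehicle lists and 2 and 5 in MG132 replicates 1 and 2. The distal site ranked 2 in both vehicle lists and 12 and 17 in MG132 replicates 1 and 2. The vehicle and MG132 ranks did not overlap at either site.

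Of all 22 sites, 5 (22.7%) ranked lower in both MG132 lists than in both vehicle lists, both Hmox1 sites included, and 6 ranked higher in both. A site at the top of the vehicle lists can hardly move other than down. The mean rank of the distal site differed by 12.5 places between MG132 and vehicle, and none of the other 21 sites had a larger fall. The proximal site fell by 2.5 places, and 8 sites had a larger fall. With 2 lists against 2, a two-sided exact test over lists could not reach the usual threshold, and none was made on values that chose the gene.

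**Figure D3:**
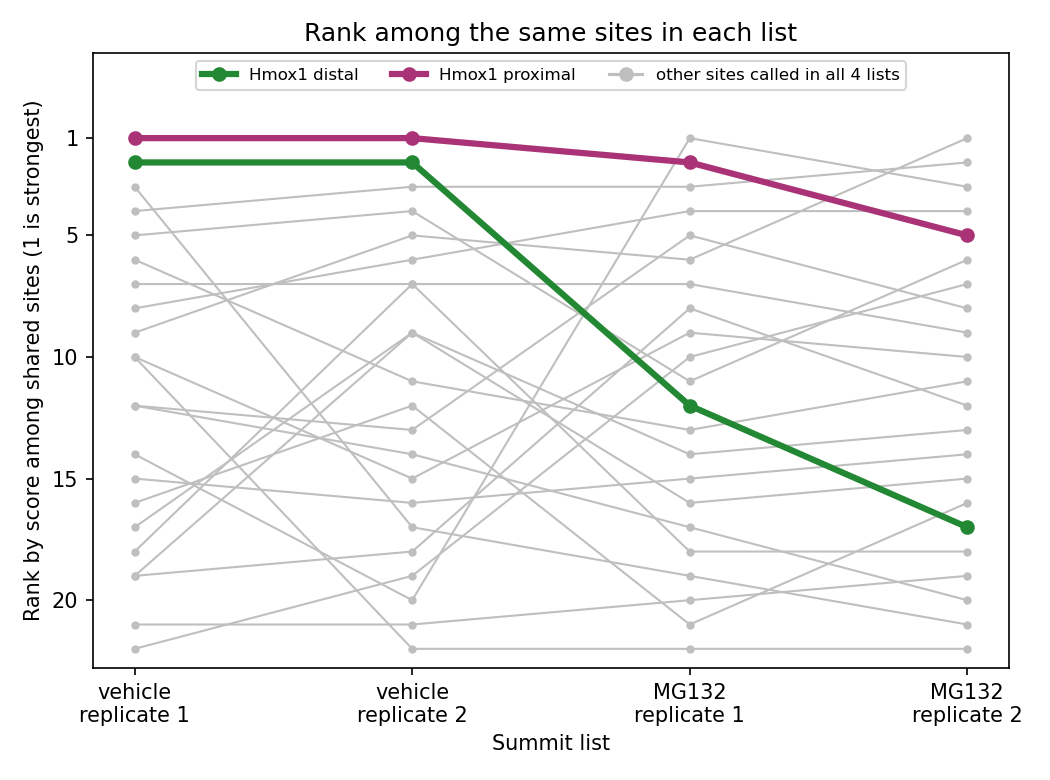
Rank by score (1 is strongest) among the 22 sites called in all 4 lists, in each list, with lines joining the values of 1 site and implying no order of the lists. The proximal site stays between ranks 1 and 5, whereas the distal site goes from rank 2 in both vehicle lists to ranks 12 and 17 in the MG132 lists.

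The score of the proximal site relative to the distal site differed between conditions in the same direction in both replicates. The proximal-to-distal score ratio was 1.42 and 1.31 in vehicle replicates 1 and 2 (mean 1.36 ± 0.0737 SD, n = 2) and 1.78 and 1.94 in MG132 replicates 1 and 2 (mean 1.86 ± 0.112 SD, n = 2). Both MG132 values lay above both vehicle values, by 0.367 in replicate 1 and 0.630 in replicate 2. Among the 21 other sites called in all 4 lists, the distal Hmox1 site was the only one (4.76%) whose score was smaller relative to the proximal site in both MG132 lists than in both vehicle lists. For 15 of the 21 it was larger in both MG132 lists, and 5 overlapped. Both Hmox1 sites headed the vehicle lists and were chosen with these scores known, so counts set against the proximal site carry that choice. A ratio of −log10 scores depends on depth and enrichment as well as on occupancy, and their part in this difference was not tested.

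The same comparison without the short list of vehicle replicate 1 took in 763 sites called in vehicle replicate 2 and both MG132 lists. Of the 762 other than the proximal site, 22 (2.89%) had a smaller score relative to it in both MG132 lists than in vehicle replicate 2, and 577 had a larger one. The distal site ranked 2 of 763 in vehicle replicate 2, and 24 and 44 in MG132 replicates 1 and 2. The proximal site ranked 1, then 3 and 6. Of the 9 other sites in the first 10 of vehicle replicate 2, 6 ranked lower in both MG132 lists and 2, the distal site included, had a smaller score relative to the proximal site in both. These 9 were picked for their high rank in vehicle replicate 2, so a lower rank elsewhere says little about them. Over all 763 sites, 315 (41.3%) ranked lower in both MG132 lists than in vehicle replicate 2.

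Measured against the median score of the 22 common sites in place of the proximal site, both members had smaller values in MG132. The proximal site was 5.03 and 2.21 times that median in vehicle replicates 1 and 2 and 1.66 and 1.37 times in MG132 replicates 1 and 2. The distal site was 3.55 and 1.68 times the median in vehicle and 0.932 and 0.707 times in MG132. In total 5 of the 22 sites (22.7%) were lower in both MG132 lists on this measure. This measure was chosen after the ranks were seen. For the proximal site its direction was opposite to that of the multiples of the whole-list median given above.

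The sites that stood above the distal Hmox1 site in MG132 replicate 1 also did so in replicate 2. There were 24 such sites in MG132 replicate 1 and 44 in replicate 2. All 24 were within 200 bp of one of the 44, which is 100% of the shorter set and 54.5% of the longer one. The proximal Hmox1 site was one of them in each list. In vehicle replicate 2, where the distal site ranked 2, 23 of the 24 and 43 of the 44 were also called, with median ranks of 49 and 68 and the lowest at 617 and 659. In vehicle replicate 1 it was 12 of the 24 and 17 of the 44. None of them was missing from both vehicle lists. Over all 6576 summits of MG132 replicate 2, 802 matched a summit of vehicle replicate 2 and 23 matched one of vehicle replicate 1. Over all 3894 summits of MG132 replicate 1, 3379 matched one of MG132 replicate 2. Those matches were between mutual nearest summits, whereas the 24 and 44 sites were looked up by nearest summit alone. The share of all MG132 replicate 1 summits called in vehicle is not given here. The 24 and 44 sites were picked by score and are the strongest of their lists, so they do not stand for all summits. Above the proximal site stood 3 sites in MG132 replicate 1 and 6 in replicate 2, and the 3 were among the 6.

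Likeness in rank was measured by the mean absolute difference in log2 rank over the 4 lists, against the 21 other sites called in all of them. Nearest to the proximal site was the site on chromosome 4 at 14826103, with a difference of 1.43, followed by chromosome 1 at 195732078 (1.68) and chromosome 2 at 76546726 (1.71). The median over the 21 sites was 3.06. The site on chromosome 4 ranked 4 and 3 in vehicle and 5 and 2 in MG132 replicates 1 and 2, which is near the top under both conditions, as the proximal site was. Nearest to the distal site was chromosome 2 at 76546726, with a difference of 1.28, then chromosome 5 at 113190703 (1.37) and chromosome 15 at 97617355 (1.65), against a median of 1.95. The site on chromosome 2 ranked 5 and 4 in vehicle and 20 and 8 in MG132 replicates 1 and 2. Farthest from the distal site was chromosome 9 at 119551225 (3.86), which ranked 16 and 49 in vehicle and 1 and 5 in MG132. These sites are given by the mm9 position of their summit in MG132 replicate 2, and no gene was assigned to them.

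Among closely spaced summits, the Hmox1 pair was the strongest in every list. In both vehicle lists this followed from its ranks of 1 and 2, and scores and ranks were part of how the gene was chosen. Adjacent summits no more than 10 kb apart formed 2 and 13 pairs in vehicle replicates 1 and 2 and 126 and 434 pairs in MG132 replicates 1 and 2. They involved 16.7%, 3.14%, 6.16% and 12.4% of the summits of those lists, in that order. Ranked by the lower of the 2 scores in a pair, the Hmox1 pair was first in all 4 lists. Its lower score, that of the distal site, exceeded that of the next pair by 2.61 and 3.45 times in vehicle replicates 1 and 2 and by 2.80 and 1.93 times in MG132 replicates 1 and 2. It was the only pair with both summits in the strongest 1% of its list in vehicle replicate 2 and in both MG132 lists. In vehicle replicate 1, 1% of the list is less than 1 summit.

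The spacing of the Hmox1 pair was wider than that of most such pairs. In MG132 replicates 1 and 2 the median spacing was 4.07 and 4.15 kb, and 81 of 126 and 272 of 434 pairs were closer than the Hmox1 sites. The pair at rank 2 in 3 of the lists, vehicle replicate 2 and both MG132 replicates, lay on chromosome 16, from 14351058 to 14352892 in MG132 replicate 2. It was 1834 bp wide there, with scores of 121 and 90.4 at ranks 102 and 168. In MG132 replicate 1 its scores were 63.9 and 54.1, at ranks 135 and 173. The pair at rank 3 was on chromosome 17, from 89850288 to 89852978, in MG132 replicate 2, with scores of 65.9 and 67.3. In MG132 replicate 1 it was on chromosome 4, from 3179988 to 3184189, with scores of 50.2 and 45.9. In each of these pairs both summits had lower scores than the distal Hmox1 site of the same list.

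**Figure D4:**
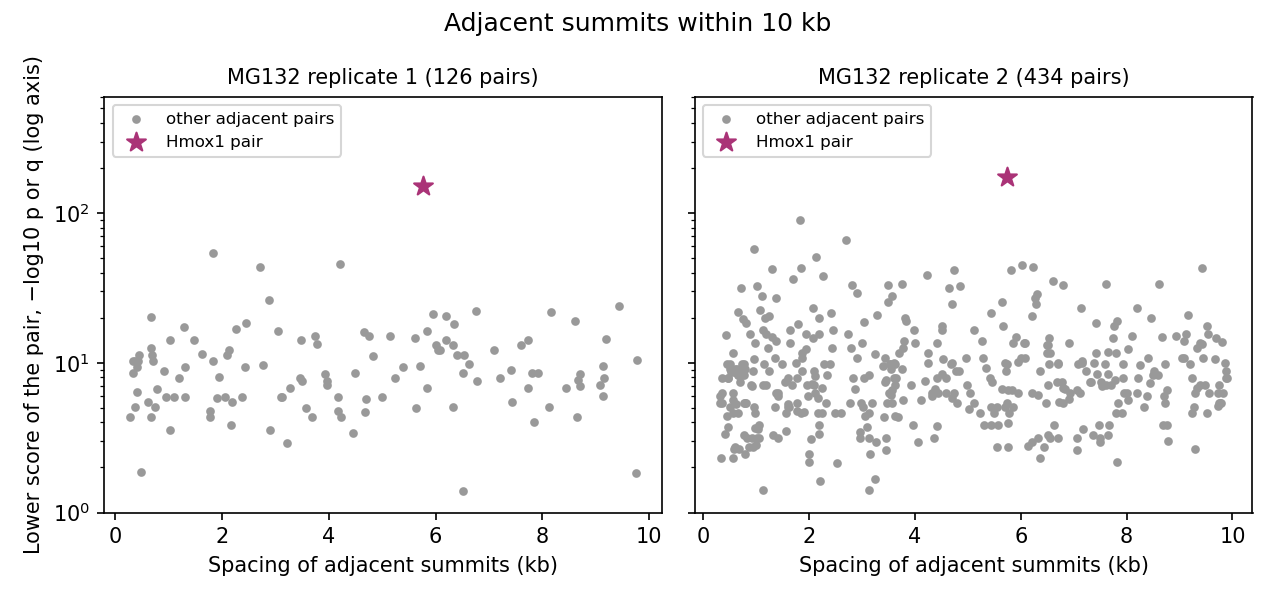
Lower score of each pair of adjacent summits within 10 kb (−log10 p or q, log axis) against their spacing in kb, in MG132 replicates 1 (126 pairs) and 2 (434 pairs), with the Hmox1 pair as a star. The Hmox1 pair, at 152 and 175, stands above all other pairs, the next of which reach 54.1 and 90.4.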

How the data were processed

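ChIP-seq summit lists of 2 vehicle and 2 MG132 libraries were analysed. The deposited lists give 1-bp summits and, in their score column, a −log10 p or q value from the authors' peak caller. MACS2 2.1.4, Bowtie2 2.2.9, bcl2fastq 2.16.0.10 and the mm9 build are listed in the submitters' processing notes. For the score threshold, control and duplicate reads, settings are not given in the sources used. Scores grow with read depth, which is unknown, so scores were ranked or divided only within a list. Positions were converted to 1-based coordinates. Summits of each list were matched to those of MG132 replicate 2 when they were each other's nearest summit within 200 bp. MG132 replicate 1 took that place where MG132 replicate 2 was left out. The other lists were not matched to one another, so a site could span more than 200 bp. Sites stronger than the pair were instead looked up by the nearest summit within 200 bp. Adjacent summits within 10 kb were called pairs. Groups came from the sample titles. The members, the gene, the lists and the comparisons were chosen with earlier results of these data known. Other sites were named by likeness in log2 rank (3 for each summit) or by the lower score of a pair (the first 3 in each MG132 list), and otherwise after their values were seen. Of the planned work, the motif search and the overlap with other antioxidant genes were not run, because no mm9 sequence or annotation was used here. Matching and pairing were tested on simulated lists. Python 3.11.15, NumPy 2.4.6, pandas 2.3.3 and matplotlib 3.10.9 were used.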

Additional observations from a re-analysis of the deposited data

How the results depend on the processing

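Of 106 alternatives, 90 moved a value by no more than the spread between lists (or, for counts, by no more than 1.5 times). The other 16 moved it further. Reversals of direction were not scored. Some alternatives could not change their value and are counted among the 90, so that number overstates stability. They include those named below. The pair ranked first among adjacent pairs, and the window held 8 summits, under every alternative run for them. The count of 8 could not change, since every member scored at least 24.5 and the next summit was 1.02 Mb or more away. In vehicle the first place of the pair could not change either, because its sites held ranks 1 and 2. For the same reason their vehicle ranks, within the list and among shared sites, were fixed under every alternative. Score minimums of 5 and 10 removed only summits weaker than the pair, so its within-list MG132 ranks could not change under them. Mean within-list percentiles followed list length. With scores of at least 5 those in MG132 were 99.90 (proximal) and 99.28 (distal), and with scores of at least 10 they were 99.84 and 98.87, against 99.91 and 99.35 with all summits. With scores of at least 10 those in vehicle were 96.4 (proximal) and 89.1 (distal), against 98.9 and 96.8.

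Scores of at least 5 left 14 sites called in all 4 lists, among which the distal site had a mean MG132 rank of 10.5. Matching within 50 bp left 16 sites and a mean rank of 10, against 22 sites and 14.5. Leaving out each list in turn gave 22 to 763 sites and a mean distal MG132 rank of 12 to 34, the highest without vehicle replicate 1, where more sites were ranked. The proximal span ranged from 2 to 22 bp and the distal span from 21 to 41 bp. With scores of at least 10, chosen after seeing the data, the next summit was 2090.54 and 2090.57 kb away in MG132 replicates 1 and 2, since the weak downstream one was removed. In a replicate block, the difference in proximal-to-distal ratio was 0.499, which with 2 lists in each group equals the value without it by arithmetic. Leaving out each list gave 0.420 to 0.578. With 2 replicate numbers, pairing of the libraries could not be checked. The unknown depth limits every comparison between lists, and 24 summits in vehicle replicate 1 set which sites could be shared.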
